A study of Mus musculus with 4 samples.

Results

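Matrix metalloproteinases (MMPs) are zinc-dependent enzymes that cut collagens, basement membrane proteins, elastin and one another, and tissue inhibitors of metalloproteinases (Timps) bind their active sites and block them. Transcripts of 10 such genes were followed here: the gelatinases Mmp2 and Mmp9, the stromelysins Mmp3, Mmp10 and Mmp11, the macrophage elastase Mmp12, the collagenase Mmp13, the membrane-anchored Mmp14, and the inhibitors Timp1 and Timp3. They were chosen by gene symbol and make up 10 of the 31054 features counted in each library.

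The data are single-cell RNA counts from skin tumours of LKPR mice, which carry the Lgr5CreER driver, floxed p53 (p53fl/fl) and the reporter Rosa26-YFP+/+. All animals, controls included, received 4 injections of 2.5 mg tamoxifen from postnatal day 28, which lets Cre act in Lgr5-positive cells, a hair follicle stem cell population in skin, to delete p53 and start YFP. Tumours were noted 7 to 9 weeks later. There were 2 control libraries and 2 libraries from mice given NP137, an antibody against netrin-1, from 4 weeks after tamoxifen until death (10 mg/kg, once in 2 days). The controls' own treatment is labelled only as control, and the labels do not say whether each library came from 1 animal.

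In tumour tissue MMPs are made by cancer cells, fibroblasts and infiltrating myeloid cells alike, as proenzymes that need activation; Mmp14 at the cell surface activates the Mmp2 proenzyme. RNA levels therefore say which cells hold the transcript and nothing of enzyme activity. Timp1 is a secreted inhibitor of many MMPs, and Timp3 is held in the extracellular matrix and also blocks several ADAM proteases.

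A run of 9 MMP genes lies on chromosome 9 between positions 7272514 and 7699585 (GRCm38/mm10, 427 kb), and 4 of the followed genes are in it: Mmp13 (7272514 to 7283331), Mmp12 (7344381 to 7369499), Mmp3 (7445822 to 7455975) and Mmp10 (7502352 to 7510240), all on the plus strand. Mmp2 is on chromosome 8 (92827291 to 92853420), Mmp9 on chromosome 2 (164940780 to 164955850), Mmp11 on chromosome 10 (75923222 to 75936496, minus strand) and Mmp14 on chromosome 14 (54431612 to 54445364). Timp1 is on chromosome X (20870166 to 20874735) and Timp3 on chromosome 10 (86300372 to 86349506). All 10 are annotated as protein-coding.

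The AP-1 motif TGANTCA, searched on both strands, is known for its place close to the start of several MMP genes of this locus. RefSeq promoter windows (GRCm38.p6, 250 bases before to 50 after a start) were found for 8 of the 10 genes; Mmp2 and Mmp9 had no entry. The motif was present in 4 of these 8 genes, and they were the 4 of the chromosome 9 run, Mmp12 at 1 of its 2 starts. It was found in 7.81% of all 32851 windows and in 8.97% of all 27025 genes. Stretches around it are printed 5′ to 3′ on the plus strand, with the motif in capitals, because these 4 genes share it close to their starts. The first base of the motif lies at -46 (Mmp3), -63 (Mmp10), -44 (Mmp12) and -35 (Mmp13).
Mmp3, chr9:7445736-7445842: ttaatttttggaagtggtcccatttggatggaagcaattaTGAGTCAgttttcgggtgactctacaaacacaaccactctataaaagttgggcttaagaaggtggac
Mmp10, chr9:7502239-7502345: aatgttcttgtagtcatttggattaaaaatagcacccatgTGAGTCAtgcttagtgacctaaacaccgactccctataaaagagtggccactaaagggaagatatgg
Mmp12, chr9:7347290-7347396: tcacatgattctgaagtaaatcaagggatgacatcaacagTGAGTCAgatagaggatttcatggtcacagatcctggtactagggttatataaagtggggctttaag
Mmp13, chr9:7272439-7272545: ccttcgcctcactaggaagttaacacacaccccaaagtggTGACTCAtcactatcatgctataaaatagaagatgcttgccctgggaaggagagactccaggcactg
A match describes the letters only. The motif was not found in the windows of Mmp11, Mmp14, Timp1 and Timp3.

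The 4 libraries held 8328 to 18146 cell barcodes and 69517664 to 149021188 UMIs (unique molecular identifiers, 1 per captured RNA molecule). After filters 5301 to 14513 cells per library were used, with median depths of 2352 to 6044 UMIs. Between 24 and 86 barcodes were shared by any pair of libraries. NP137 library 1 held both cells with Xist and no Y-linked UMI (27.7%) and cells with Y-linked UMIs and no Xist (16.7%), whereas in each other library 1 of these kinds was at most 0.302%. Control 1 and NP137 2 held the Xist kind (64.4% and 68.0%) and control 2 the Y-linked kind (51.4%), so the 2 controls were unlike in this. Cells formed 32 clusters without use of the 10 genes. Cells of no class were 4.66%, 34.0%, 4.50% and 35.6% of control 1, control 2, NP137 1 and NP137 2. Most numerous among them were cluster 10 in control 2 (1716 cells) and cluster 6 in NP137 2 (2326 cells). In 8 classes every library had at least 50 cells, namely YFP-positive cells (clusters in which at least 50% of cells had a YFP UMI) and epithelial-like, fibroblast-like, pericyte or smooth muscle-like, blood endothelial-like, macrophage or monocyte-like, neutrophil-like and T cell-like cells. Levels below are UMIs per 1000000 UMIs of the class in a library (CPM), in the order control 1, control 2, NP137 1 and NP137 2.

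The YFP-positive class, the labelled tumour lineage, differed in make-up between libraries before any MMP was looked at. Cluster 0, led by Mme and H19, gave 3928 of its 4754 cells in control 1, and cluster 16, led by Clu and Mgp, 1110 of 1173 in control 2. Cluster 1, led by Tchh, Gpx2 and Il24, gave 2365 of 3148 cells in NP137 1 and 892 of 914 in NP137 2. Summed CPM of the 9 fibroblast markers in the class was 7995 and 5598 in the controls against 289 and 561 under NP137, and that of the 12 epithelial markers was 3026 and 1098 against 19022 and 21425. The label is therefore a lineage and not a single cell state, and the class values below carry these differences in make-up with them.

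The gelatinase Mmp2, which cuts denatured collagen and collagen IV, was found mainly in fibroblast-like cells. Its level in fibroblast-like cells was 1483, 1039, 763 and 952 CPM, above every library of every other class. YFP-positive cells followed with 389, 135, 34.4 and 7.74 CPM, and those 4 values overlapped the classes after it, which lay between 10.2 and 145 CPM. Mmp9, the gelatinase stored in neutrophil granules, was highest by median in neutrophil-like cells, at 749, 236, 481 and 579 CPM. Fibroblast-like cells held 467, 40.7, 995 and 239 CPM of Mmp9, a range that overlaps that of the neutrophil-like cells. Mmp9 was also high outside the named classes, in cluster 24, led by the osteoclast genes Acp5, Atp6v0d2 and Ctsk. There Mmp9 was 4565 CPM in control 1, the highest of any cluster of that library, 135 CPM in NP137 1 and 2515 CPM in NP137 2. This 1.18% of the cells of control 1 held 45.5% of its Mmp9 UMIs. Cells of cluster 24 had a median depth of 2.135 times the median of their library.

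Mmp3, stromelysin-1, which cuts proteoglycans and activates other MMPs, stood at 2510.3, 446, 2434 and 1829 CPM in fibroblast-like cells and at 886, 234, 49.9 and 103 CPM in YFP-positive cells. The lowest fibroblast value, in control 2, lies under the highest YFP-positive one, so the 2 ranges overlap. A further value of 949.7 CPM was seen in the 219 T cell-like cells of control 1, beside 10.3 to 62.8 CPM in the T cell-like cells of the other libraries. Mmp10, stromelysin-2, was highest by median in fibroblast-like cells, with 81.5, 7.26, 246 and 58.3 CPM. Blood endothelial-like cells held 2.64, 0.468, 25.8 and 31.3 CPM of Mmp10, and pericyte or smooth muscle-like cells 2.47, 0.818, 22.0 and 79.5 CPM. In all 3 classes both NP137 libraries were above control 2, and in the last 2 they were above both controls. The share of all genes with that order was not counted in these 2 classes, where controls had at most 2.64 CPM. T cell-like cells held no Mmp10 UMI in the controls and up to 13.0 CPM under NP137, so no change is read in these 2 classes. Mmp11, stromelysin-3, a stromal gene first known from breast carcinoma, was at 289.7, 147, 298 and 19.2 CPM in fibroblast-like cells and at 75.0, 58.9, 79.5 and 40.4 CPM in pericyte or smooth muscle-like cells. Every library of the remaining 6 classes had at most 7.30 CPM of Mmp11, so these 2 stromal classes stood apart from the rest.

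Mmp12, which cuts elastin, was found mainly in macrophages, with 251, 124, 533 and 292 CPM in macrophage or monocyte-like cells and at most 49.6 CPM in any library of the other 7 classes. Within that class, cluster 4, led by Chil3 and MHC class II genes, held 608, 177, 602 and 568 CPM, and cluster 8, led by Fcrls and Pf4, held 79.1, 24.9, 155 and 67.8 CPM. Cluster 4 was above cluster 8 within each library. The dendritic-like cluster also held Mmp12, at 266, 180.2 and 132 CPM in the 3 libraries with at least 50 such cells.

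The collagenase Mmp13, which opens fibrillar collagen, was at 2791, 257, 4846 and 533 CPM in fibroblast-like cells. These values span more than an order of magnitude, and control 2 overlaps classes such as the epithelial-like cells (41.3, 124, 96.0 and 589.8 CPM) and blood endothelial-like cells (14.9, 6.08, 155 and 496 CPM). Mmp14 was spread over more classes than the secreted enzymes. It was at 972, 721, 732 and 305 CPM in fibroblast-like cells, 466, 309, 385 and 446 CPM in pericyte or smooth muscle-like cells and 433, 215, 267 and 410.4 CPM in blood endothelial-like cells. YFP-positive cells held 340.1, 440.0, 146 and 74.7 CPM of Mmp14, and macrophage or monocyte-like cells 309, 231, 230.4 and 164 CPM. Neighbours among these 5 classes overlapped, and the epithelial-like, neutrophil-like and T cell-like cells lay below the macrophages.

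The inhibitor Timp1 was high in 3 classes: fibroblast-like cells (902, 1632, 713 and 1675 CPM), YFP-positive cells (726, 2266, 466 and 883 CPM) and pericyte or smooth muscle-like cells (419.7, 1050.1, 511 and 787 CPM). Their ranges overlapped one another, and blood endothelial-like cells lay below all of them at 117 to 191 CPM. Timp3 was highest by median in blood endothelial-like cells, at 382, 616, 314 and 298 CPM, followed by pericyte or smooth muscle-like cells at 445, 198, 251 and 280.3 CPM. YFP-positive cells of control 1 exceeded both with 813 CPM of Timp3, while those of NP137 2 held 3.16 CPM, the lowest Timp3 value in the 8 classes.

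**Figure D1:**
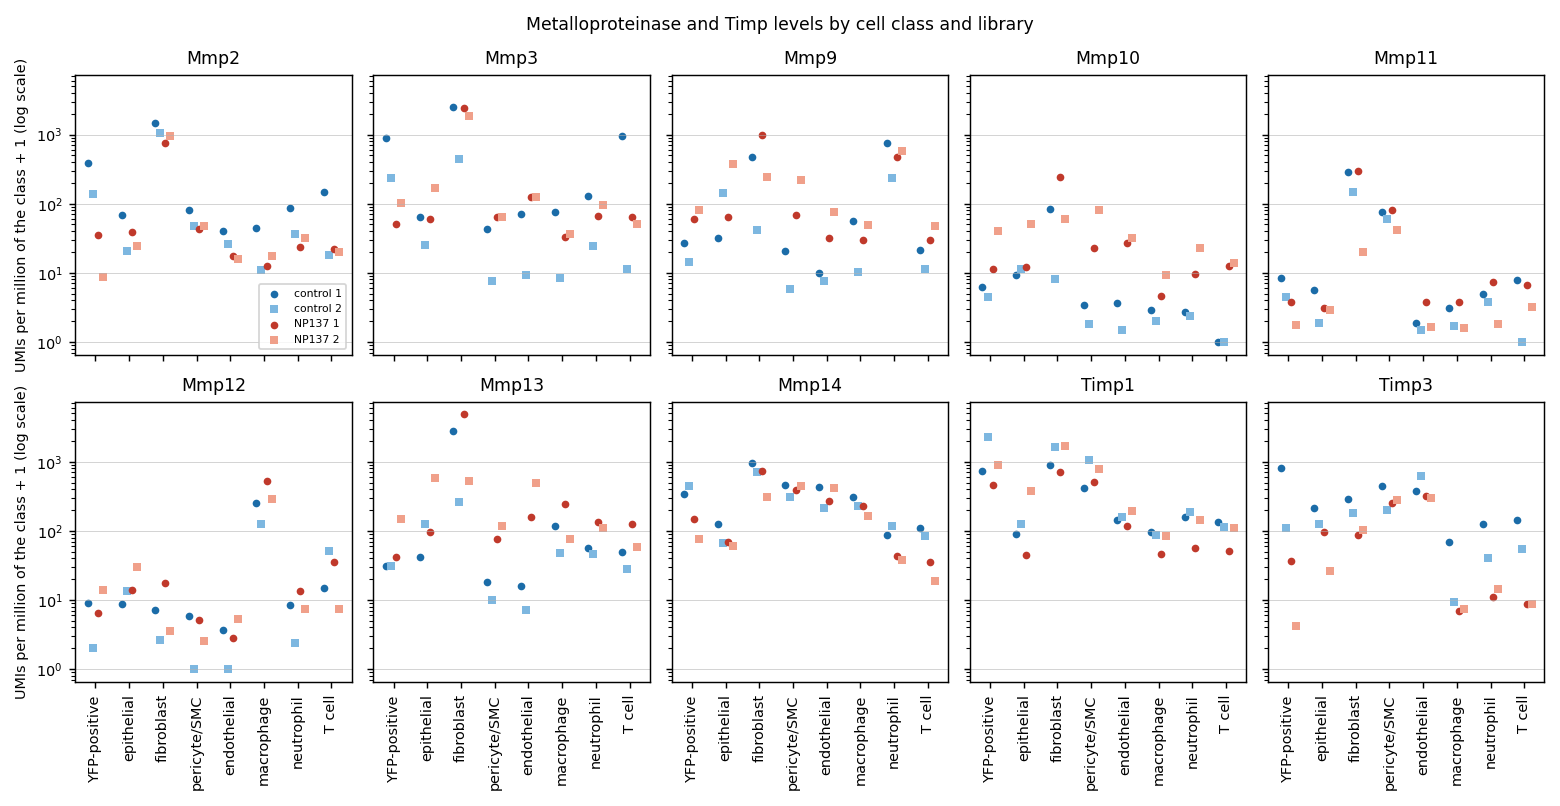
Level of each gene (vertical axis, CPM of the class plus 1, log scale) in 8 cell classes (horizontal axis); each point is 1 library, blue for control and red for NP137. Among these 8 classes Mmp12 stands high in macrophages alone, between 124 and 533 CPM, and Mmp11 in fibroblasts and pericytes, while Mmp14 is spread over most classes.

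Fibroblasts were not uniform in these genes, and the class was filled by different clusters in different libraries, which bears on any comparison of the class. Cluster 9, led by 1500015O10Rik and Col7a1 beside Mmp13 and Mmp11, gave 1466 of the 2266 fibroblast-like cells of NP137 1 and 192 of the 652 of control 1. Cluster 11, led by Cilp, Coch and Apod, gave 430 cells in control 1, 224 of the 234 in control 2 and 757 in NP137 1. Cluster 14, led by Lbp and Clec3b, gave 1128 of the 1224 in NP137 2. Mmp13 in cluster 9 was 6210.0 CPM in control 1, 5975 CPM in NP137 1 and 10104 CPM in NP137 2, against 589, 228 and 307 CPM in cluster 11 of control 1, control 2 and NP137 1, and 25.8 CPM in cluster 14 of NP137 2. Within cluster 9 the control library lay between the 2 NP137 libraries for Mmp13.

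Mmp9 and Mmp10 followed the same division. In cluster 9 Mmp9 was 1122, 1226 and 4337 CPM in control 1, NP137 1 and NP137 2, and Mmp10 was 200.1, 304 and 1017 CPM. In cluster 11 Mmp9 was 36.7, 10.8 and 67.9 CPM in control 1, control 2 and NP137 1, and Mmp10 was 2.55, 2.59 and 12.3 CPM. Mmp2 did not follow it, at 1875 CPM in cluster 11 against 999 CPM in cluster 9 of control 1, and 849 against 733 CPM in NP137 1. Mmp11 differed little between the clusters, at 311 CPM in cluster 11 against 303 CPM in cluster 9 of control 1, and 265 against 311 CPM in NP137 1.

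A pair of clusters with fibroblast markers remained unnamed because their leading genes held markers of other classes. These were the pericyte marker Tagln in both and the mast cell or basophil marker Mcpt8 in cluster 18. Cluster 18, led by the granzymes Gzme and Gzmd, had 362 cells in NP137 1, 584 in NP137 2, 22 in control 1 and 0 in control 2, and it held the highest Mmp10 levels of any cluster, 1139 CPM in NP137 1 and 1514 CPM in NP137 2. Its Mmp13 was 6246 and 3867 CPM and its Mmp9 2668 and 2831 CPM. In NP137 2 this cluster was 4.02% of the cells and held 74.0% of the Mmp10, 61.3% of the Mmp13 and 45.8% of the Mmp9 UMIs. Cells of cluster 18 had a median depth of 2.214 times the median of their library. Cluster 7, led by Cxcl5, Cthrc1 and Lox, had 1873 cells in NP137 2, 246 in control 1, 184 in NP137 1 and 3 in control 2. It held the highest Timp1 of any cluster, at 2668 CPM in control 1, 2437 CPM in NP137 1 and 4064 CPM in NP137 2.

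**Figure D2:**
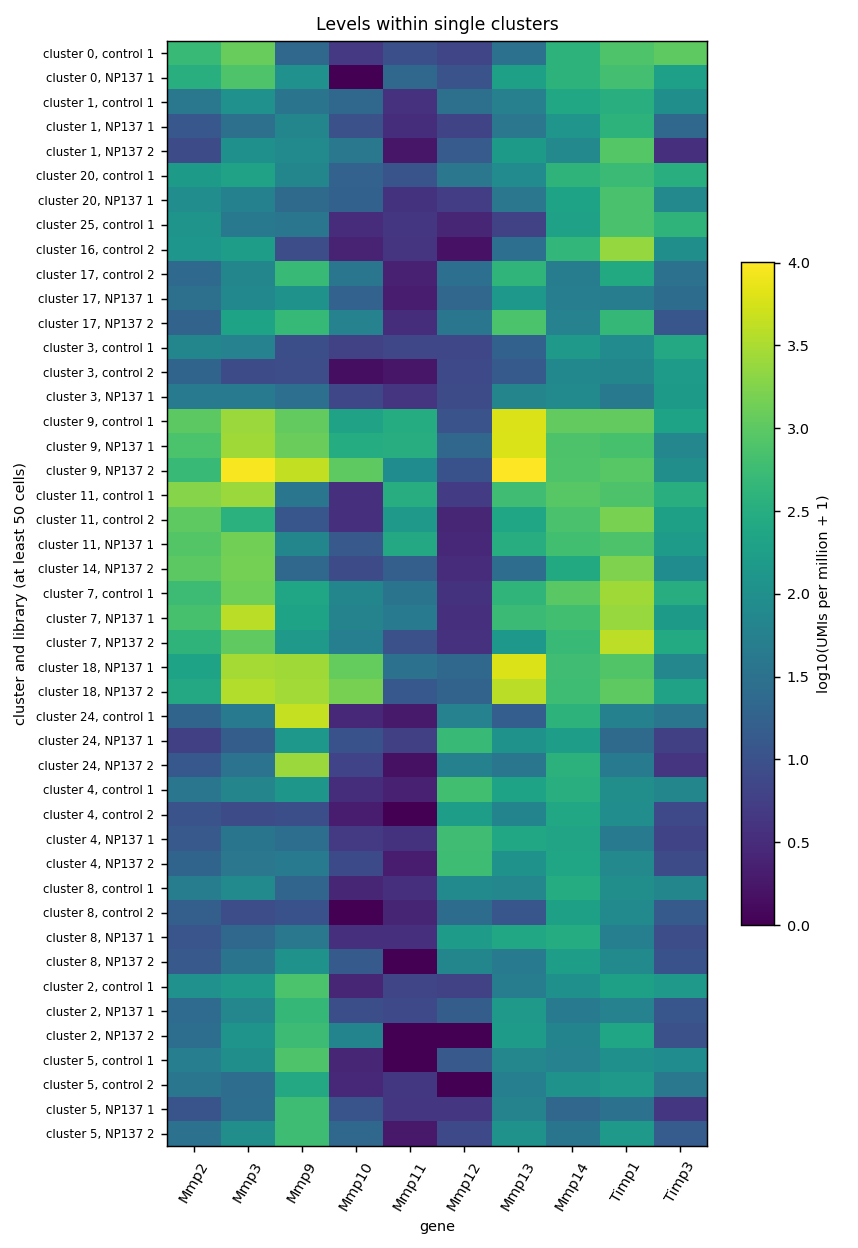
Level of each gene (columns; colour, log10 of CPM plus 1) in single clusters by library (rows; only clusters with at least 50 cells in that library). Clusters 9 and 18 share high Mmp9, Mmp10 and Mmp13, while their high Mmp3 is also found in other fibroblast clusters. Cluster 24 holds Mmp9 without Mmp3, Mmp10 and Mmp13, and cluster 7 holds the highest Timp1.

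Over the fibroblast-like class as a whole the same grouping was seen from cell to cell. After every cell was thinned to 2000 UMIs, fibroblast-like cells with an Mmp13 UMI also had an Mmp9 UMI in 36.6% of cases in control 1, 50% in NP137 1 and 50.5% in NP137 2, against 5.46%, 16.7% and 3.62% of the cells without Mmp13. Mmp10 was found in 17.5%, 28.2% and 38.4% of the Mmp13-positive cells and in 0.862%, 11.8% and 2.08% of the others. Mmp11 went with Mmp13 in the same direction by a smaller margin, in 42.6%, 33.5% and 10.1% of the Mmp13-positive and 27.3%, 25.4% and 3.17% of the other cells. Mmp14 also went with Mmp13, in 85.2%, 75.7% and 64.6% against 70.7%, 67.3% and 42.4%. So did Mmp3, in 63.4%, 56.8% and 78.8% against 51.4%, 46.7% and 63.8%. Timp1 did not, at 61.2%, 61.7% and 65.7% against 52.0%, 62.6% and 80.9%. Mmp2 showed no such split over the class: 83.1%, 64.8% and 66.7% of the Mmp13-positive and 77.6%, 68.7% and 80.2% of the other cells held a UMI. Control 2 had 18 Mmp13-positive fibroblast-like cells, too few for a share. Within cluster 9 Mmp9 was in 54.2% against 19.7% of cells in control 1 and 52.0% against 22.8% in NP137 1. In cluster 11 it was in 3.17% against 2.70% and 6.67% against 2.36%, so the class shares partly restate the clusters. Mmp10 in cluster 11 was in 1.59% against 0.386% in control 1 and 0% against 2.36% in NP137 1. Mmp14 kept the class order in clusters 9 and 11 of control 1 and NP137 1. In cluster 14 of NP137 2, with 39 Mmp13-positive cells, Mmp14 had the reverse order, 33.3% against 41.8%. Mmp2 in cluster 11 of control 1 was in 92.1% of Mmp13-positive and 78.0% of other cells. These shares describe cells of the same libraries and carry no test.

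Over the 32 sums of class and library, the pairs with the highest Pearson correlation of log levels were Mmp2 with Mmp3 (0.80), Mmp10 with Mmp13 (0.79), Mmp2 with Mmp11 (0.74) and Mmp9 with Mmp13 (0.70), and the lowest was Mmp12 with Timp3 (-0.60). The points share 4 libraries and differ in depth. Among 8689 genes compared in the same way, the closest pair to each gene was Dcn and Loxl1 for Mmp2 (0.94 and 0.92), Sfrp2 and Pcolce2 for Mmp3 (0.90 and 0.84), Gpc3 and Saa3 for Mmp9 (0.76 and 0.73), and Adm and Stra6 for Mmp10 (0.73 and 0.71). For Mmp11 it was Srpx2 and C1qtnf2 (both 0.93), for Mmp12 H2-Ab1 and Aif1 (0.91 and 0.90), for Mmp13 Cpxm1 and Reg1 (0.74 and 0.72), and for Mmp14 Rrbp1 and Vat1 (0.95 and 0.91). The inhibitors were closest to Prrx1 and Gpx8 (Timp1, both 0.90) and to Msrb3 and Cul7 (Timp3, 0.90 and 0.89).

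NP137 and control libraries were then compared within the YFP-positive class, which asks how the tumour lineage differed in these genes under netrin-1 blockade. Both NP137 libraries lay below both controls for Mmp2, Mmp3, Mmp11, Mmp14 and Timp3, and above both for Mmp9, Mmp10 and Mmp13. The ranges overlapped for Mmp12 (8.01, 1.02, 5.37 and 12.8 CPM) and for Timp1. Of all 14103 genes tested in this class, 40.7% were lower and 18% higher without overlap, and the members' 5 and 3 of 10 are to be read against those shares.

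No member passed the main test, the quasi-likelihood test of edgeR adjusted by Benjamini-Hochberg over all genes, which called 1 gene, 0.00709% of those tested. At an unadjusted p under 0.05 there were 7 of the 10, against 23.6% of all genes. DESeq2, the alternative tool, called the same 7 (Mmp2, Mmp3, Mmp9, Mmp10, Mmp13, Mmp14 and Timp3) at an adjusted p under 0.05, against 15.9% of all genes. The median log2 fold change of the 10 was -1.11, and that of all genes tested was -0.03.

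The largest differences were in the inhibitor Timp3 and the gelatinase Mmp2. Timp3 was 813 and 107 CPM in the controls and 35.7 and 3.16 CPM under NP137, a log2 fold change of -4.39 ± 1.53 (SE, 2 against 2 libraries; edgeR adjusted p = 0.18, DESeq2 adjusted p = 0.00109). For Timp3 the ratio between the 2 controls exceeded that between control 2 and NP137 1. Mmp2 was 389 and 135 CPM against 34.4 and 7.74 CPM, a log2 fold change of -3.44 ± 0.91 (edgeR adjusted p = 0.123, DESeq2 adjusted p = 0.000257). Mmp14, the activator of the Mmp2 proenzyme, was 340.1 and 440.0 CPM against 146 and 74.7 CPM, with the smallest spread of the lower genes (log2 fold change -1.57 ± 0.36, edgeR adjusted p = 0.102, DESeq2 adjusted p = 0.00446).

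Mmp3 was 886 and 234 CPM in the controls against 49.9 and 103 CPM, a log2 fold change of -2.62 ± 0.80 (edgeR adjusted p = 0.147, DESeq2 adjusted p = 0.00426). Mmp11 was low throughout, at 7.30 and 3.46 CPM against 2.79 and 0.734 CPM (log2 fold change -1.38 ± 0.82, edgeR adjusted p = 0.366). Timp1 had a log2 fold change of -0.84 ± 0.62 (edgeR adjusted p = 0.464), and without control 2, the library highest in Timp1, the sign turned to 0.13. Leaving out 1 library at a time, the log2 fold changes lay between -6.95 and -2.18 for Timp3, -4.84 and -2.39 for Mmp2, -2.12 and -1.22 for Mmp14 and -3.31 and -1.27 for Mmp3, so these 4 stayed lower in each of those fits. In the controls YFP-positive cells held 74.2% and 79.8% of all Mmp3 UMIs, being 45.4% and 22.1% of the cells. Under NP137 they held 5.41% and 2.09%, being 22.2% and 6.30% of the cells. The class held 50580558, 32377860, 28280189 and 17702518 UMIs in control 1, control 2, NP137 1 and NP137 2. These libraries held 88076950, 73685280, 69517664 and 149021188 UMIs before filters, so shares of cells understate the share of UMIs in this class.

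The 3 genes that were higher stood at low levels in this class. Mmp9 was 26.0 and 13.4 CPM in the controls and 59.0 and 80.1 CPM under NP137 (log2 fold change 2.07 ± 0.46, edgeR adjusted p = 0.0978, DESeq2 adjusted p = 0.000886). Mmp10 was 5.28 and 3.40 against 10.3 and 39.3 CPM (2.79 ± 0.78, adjusted p = 0.13 by edgeR and 0.00226 by DESeq2). Mmp13 was 29.7 and 30.3 against 40.3 and 149.6 CPM (1.96 ± 0.68, adjusted p = 0.18 by edgeR and 0.0264 by DESeq2). For the last 2 the difference rests mainly on NP137 2: without it the log2 fold changes were 1.43 for Mmp10 and 0.62 for Mmp13.

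**Figure D3:**
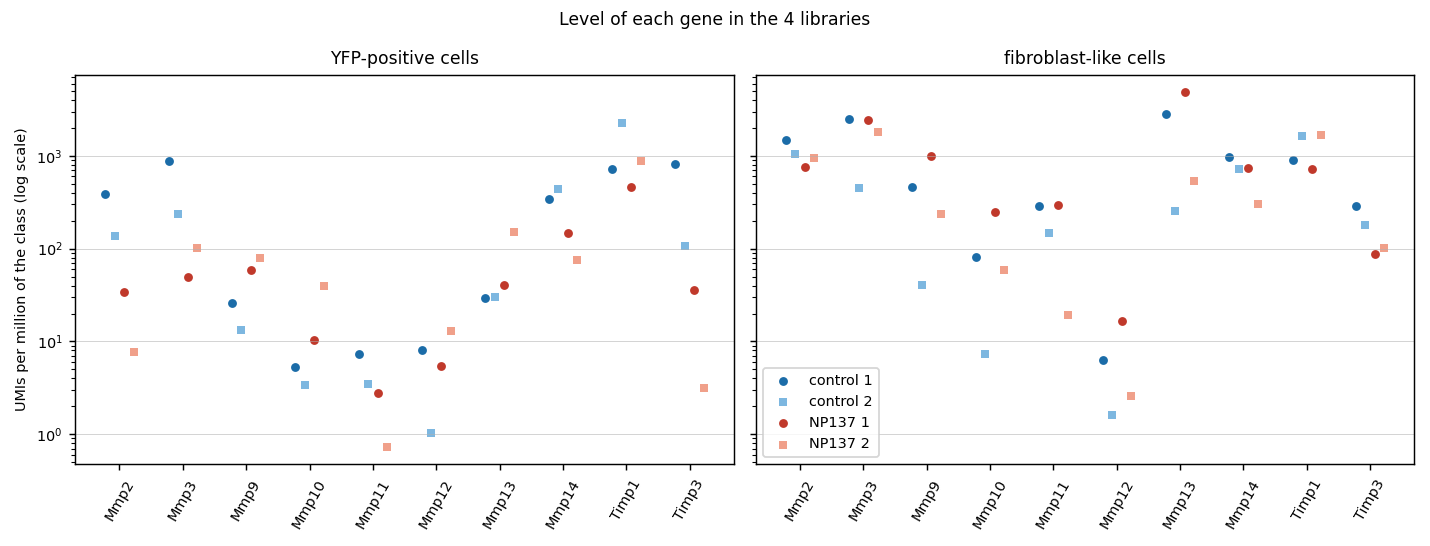
Level of each gene (vertical axis, CPM of the class, log scale) in the 2 control libraries (blue) and the 2 NP137 libraries (red), in YFP-positive cells on the left and fibroblast-like cells on the right; each point is 1 library. Mmp2, Mmp3, Mmp11, Mmp14 and Timp3 sit lower in both NP137 libraries on the left, and on the right most genes overlap.

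Free RNA in droplets gives UMIs to cells that do not make a gene. Shares of cells with a UMI were therefore set beside those of T cell-like cells, which should lack these stromal enzymes. The class is not a clean reference, since it held markers of other cells. Its C1qa was 864 CPM in control 2, against 12.3 CPM in neutrophil-like cells there. In control 1 its Mmp3 was 949.7 CPM, against 75.0 CPM in macrophage or monocyte-like and 129 CPM in neutrophil-like cells. A share no higher than in T cell-like cells is therefore not shown to be free RNA alone. At 2000 UMIs per cell, an Mmp13 UMI was seen in 3.77%, 1.66%, 7.87% and 14.2% of YFP-positive cells and in 2.60%, 2.27%, 17.4% and 9.59% of T cell-like cells. Mmp9 was in 3.79%, 1.57%, 6.74% and 8.57% of YFP-positive against 2.60%, 2.27%, 6.52% and 6.10% of T cell-like cells. Mmp10 was in 0.631%, 0.523%, 1.79% and 4.57% against 0%, 0%, 0% and 3.49%, where no cell of 77, 88 and 46 allows a share of up to 4.68%, 4.11% and 7.71% (exact binomial limits). The exact 95% intervals of the T cell-like shares, which are wide over 46 to 88 cells in 3 libraries, span the YFP-positive share for Mmp9 and Mmp10 in all 4 libraries and for Mmp13 in 3. In NP137 2, the library on which the Mmp13 difference mainly rests, the YFP-positive share of 14.2% lay above the interval of 6.70% to 13.2%. At this depth the shares of Mmp9 and Mmp10 in this class could not be told apart from those in T cell-like cells. That does not show the YFP-positive UMIs to be free RNA. T cell-like cells were shallower, and thinning leaves the part of free RNA in a cell unchanged. In NP137 1 the epithelial marker Krt14 was 3029 CPM in neutrophil-like cells (median depth 744 UMIs) and 2499 CPM in T cell-like cells (990). It was 1240 CPM in macrophage or monocyte-like cells (2033) and 931 CPM in fibroblast-like cells (2438).

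Of the 5 genes that were lower, Mmp2, Timp3 and Mmp14 stood above that background in both controls by share of cells. Mmp3 did so too, but narrowly in control 2. Mmp2 was in 51.4% and 19.4% of YFP-positive cells of the controls against 10.4% and 2.27% of T cell-like cells, and under NP137 in 6.22% and 1.94% against 6.52% and 4.94%, at or below the background. Timp3 was in 64.4% and 16.8% against 16.9% and 2.27% in the controls, and in 6.33% and 0.914% against 0% and 1.45% under NP137. Mmp3 was in 29.98% and 9.85% of YFP-positive cells of the controls against 14.3% and 3.41% of T cell-like cells, where the second interval reaches 9.64%, and in 6.29% and 13.1% against 10.9% and 8.72% under NP137. By CPM the T cell-like cells of control 1 held as much Mmp3 (949.7) as the YFP-positive ones (886). Mmp11 could not be told apart from the background, with 1.47%, 1.05%, 0.481% and 0% of YFP-positive and 2.60%, 0%, 0% and 0.291% of T cell-like cells. Mmp14 and Timp1 were above it in all 4 libraries. Mmp14 was in 50.6%, 54.5%, 25.4% and 13.0% of YFP-positive against 20.8%, 6.82%, 4.35% and 2.91% of T cell-like cells, and Timp1 in 54.9%, 85.3%, 46.5% and 59.1% against 16.9%, 19.3%, 4.35% and 12.5%. Median depths were 8224.5, 27198, 8627.5 and 18536 UMIs in YFP-positive and 1479, 4593, 990 and 1804.5 UMIs in T cell-like cells, and 77, 88, 46 and 344 T cell-like cells reached 2000 UMIs. Before thinning, 79.2% of the YFP-positive cells of control 1 had an Mmp2 UMI.

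The make-up of the class moved with these results, and 3 clusters could be compared within themselves. In cluster 1, which is present in control 1 (291 cells) and in both NP137 libraries, Timp3 was 98.2 CPM against 20.8 and 2.44 CPM, Mmp2 39.7 against 11.2 and 7.38 CPM, and Mmp14 246 against 122 and 74.6 CPM. Mmp3 in cluster 1 was 106 CPM in control 1 against 29.2 and 102 CPM, so NP137 2 was close to the control there. In cluster 0, of which NP137 1 had 132 cells, Mmp3 was 1199 CPM in control 1 and 806 CPM in NP137 1, Mmp2 501 and 337 CPM, Mmp14 381 and 393 CPM and Timp3 1011 and 184 CPM. In cluster 20, led by Fxyd2 and Rbp4, control 1 (103 cells) and NP137 1 (643 cells) held 324 and 75.1 CPM of Timp3, 152 and 90.3 CPM of Mmp2, 198 and 57.0 CPM of Mmp3 and 406 and 209.9 CPM of Mmp14. Cluster 1 of control 1 was set beside the T cell-like cells of that library. A UMI was seen in about as many cells for Timp3 (12.9% against 16.9%), Mmp2 (10.04% against 10.4%) and Mmp3 (13.3% against 14.3%). No change of these 3 genes is read in cluster 1, and none is excluded, since that reference is not clean and its cells are shallower. Mmp14 stood above it there (41.6% against 20.8%, interval 12.4% to 31.5%). In cluster 20 of control 1 Timp3 (35.7%) and Mmp2 (25%) stood above the T cell-like intervals, which end at 27.1% and 19.4%, and Mmp3 (13.1%) did not. Within control 1 the step from cluster 0 to cluster 1 was from 501 to 39.7 CPM for Mmp2 and from 1199 to 106 CPM for Mmp3. The part of the make-up in the class differences was not tested beyond these values, and each of these clusters has 1 control library.

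In fibroblast-like cells none of the 10 genes passed (edgeR called 0 of 11731 genes, 0%), 1 had an unadjusted p under 0.05, against 2.81% of all genes, and DESeq2 called none of them, against 0.145% of genes. That gene was Timp3, at 286 and 180.3 CPM in the controls and 87.0 and 101 CPM under NP137 (log2 fold change -1.19 ± 0.37, edgeR adjusted p = 0.971). Timp3 and Mmp2 were the 2 members lower without overlap, against 22.3% of all genes, and none was higher without overlap, against 9.79%. Among the enzymes of the collagen matrix, Mmp2 differed by -0.43 ± 0.36, Mmp13 by 0.81 ± 1.49 and Mmp14 by -0.63 ± 0.47 on the log2 scale. The stromelysins Mmp3, Mmp10 and Mmp11 differed by 0.59 ± 0.88, 1.78 ± 1.30 and -0.44 ± 1.24, Mmp9 by 1.29 ± 1.32 and Timp1 by 0.10 ± 0.58, each within 2 standard errors of 0. Mmp12, at 6.25, 1.61, 16.4 and 2.57 CPM, was low in these cells and overlapped. The median of the 10 was 0.34 and that of all genes tested 0.00. The sign of Mmp13 turned to -0.97 when the members were kept for clustering and to -1.37 without NP137 1. Clusters 7 and 18, which have fibroblast markers, stayed unnamed and are not in these sums. They had 1873 and 584 cells in NP137 2, where the class had 1224, and 3 and 0 in control 2. With both added, edgeR called 0 of 12376 genes (0%), and the 9 members followed through the alternatives kept their signs.

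Macrophage or monocyte-like cells gave none of 10 (0% of 11240 genes by edgeR), 2 at an unadjusted p under 0.05 (3.27% of all genes) and none by DESeq2 (0.0712% of genes). Mmp12 was 251 and 124 CPM in the controls and 533 and 292 CPM under NP137, with no overlap, as were 11.6% of all genes in that direction (log2 fold change 1.23 ± 0.47, edgeR adjusted p = 0.996). Within cluster 4 it was 608, 177, 602 and 568 CPM, so control 1 was as high there as the NP137 libraries. Cluster 4 gave 726 of 2306 cells of the class in control 1 and 967 of 1160 in NP137 1, and cluster 19, led by Ccl6 and Ccl8, with 14.9 CPM of Mmp12, gave 791 of 1989 in NP137 2. The other gene with an unadjusted p under 0.05 was Mmp10, at 1.86 and 1.02 against 3.61 and 8.33 CPM (2.08 ± 0.62, edgeR adjusted p = 0.996), levels at or under those of T cell-like cells under NP137 (11.4 and 13.0 CPM). Mmp14, Timp1 and Timp3 (67.7 and 8.46 against 6.01 and 6.41 CPM) were lower without overlap, as were 21.4% of all genes, and Mmp2, Mmp3, Mmp9, Mmp11 and Mmp13 overlapped.

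Neutrophil-like cells gave none of the 9 genes that passed the low-count filter (0% of 9016 genes by edgeR), 4 at an unadjusted p under 0.05 (4.4% of all genes) and 1, Timp3, by DESeq2 (0.133% of genes). Their own enzyme Mmp9 differed by 0.33 ± 0.58 on the log2 scale (edgeR adjusted p = 0.998). Cluster 6, with neutrophil markers but few UMIs, stayed unnamed and is not in these sums. It had 2326 cells in NP137 2, where the neutrophil-like class had 2086, and 81, 57 and 11 in control 1, control 2 and NP137 1. Mmp13 (54.8 and 45.3 against 133 and 110.1 CPM) and Mmp14 (86.4 and 117 against 41.7 and 36.4 CPM) did not overlap between groups, with log2 fold changes of 1.48 ± 0.41 and -1.15 ± 0.40. T cell-like cells, set beside them as background, held 48.2, 27.4, 124 and 56.6 CPM of Mmp13 and 108, 82.1, 34.3 and 17.5 CPM of Mmp14, which did not overlap either, so no change in neutrophils is read from these 2 genes. Of all genes 26.6% were lower and 7.15% higher without overlap, and of the 9 members 4 (Mmp2, Mmp14, Timp1 and Timp3) and 2 (Mmp10 and Mmp13). Mmp10 rests on 3 and 1 UMIs in the controls, which are 1.69 CPM (exact 95% interval 0.349 to 4.95) and 1.37 CPM (0.0347 to 7.64), against 8.51 and 22.0 CPM under NP137 (3.49 ± 0.84, edgeR adjusted p = 0.62). T cell-like cells held no Mmp10 UMI in the controls and 11.4 and 13.0 CPM under NP137. Mmp3 and Mmp12 overlapped, and Mmp11 was the gene left out by the filter. Timp3 was 123 and 39.8 against 9.85 and 13.3 CPM in these cells (-2.59 ± 0.58, edgeR adjusted p = 0.567), in the same order of libraries as in the T cell-like cells (145, 53.0, 7.61 and 7.63 CPM) and, but for the last 2, in the YFP-positive cells.

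Epithelial-like cells, of which NP137 2 had 89, gave none of 10 (0% of 11409 genes by edgeR), none at an unadjusted p under 0.05 (5.67% of all genes) and none by DESeq2 (0.114% of genes). The class is not free of the label, and unequally so between libraries. Its YFP was 171, 62.1, 277 and 276 CPM, against 149, 35.9, 91.4 and 13.5 CPM in T cell-like cells. Its main clusters, 3 and 17, had a YFP UMI in 23.6% and 36.5% of cells. Mmp13 was 41.3 and 124 CPM in the controls and 96.0 and 589.8 CPM under NP137, and Mmp9 31.4 and 144 against 63.4 and 376 CPM. The NP137 2 sum, which is the highest for both genes, also held more of other cells' markers. Its summed fibroblast markers were 2003 CPM against 217 to 612 CPM in the other libraries, its neutrophil markers 4220 against 604 to 1615 CPM and its macrophage markers 195 against 12.8 to 108 CPM. Their part in these values was not tested. Within the class both genes went with cluster 17, led by Cst6, Krt6b and Krt16, which are genes of activated and differentiating keratinocytes. Cluster 17 held 498, 109 and 476 CPM of Mmp9 and 415, 135 and 746 CPM of Mmp13 in control 2, NP137 1 and NP137 2, while cluster 3, led by Krt15, held 7.90 and 27.8 CPM of Mmp9 and 12.7 and 65.1 CPM of Mmp13 in control 2 and NP137 1. Timp3 (217 and 124 against 96.6 and 25.2 CPM) was lower without overlap, as were 31.2% of all genes. Mmp10 (8.42 and 10.2 against 11.01 and 49.4 CPM) and Mmp12 (7.65 and 12.6 against 12.8 and 28.9 CPM) were higher without overlap, as were 11.2%, and the remaining members overlapped. Without NP137 1, which leaves NP137 2 alone, the test called 5 of the 9 genes tested in epithelial-like cells (Mmp3, Mmp10, Mmp12, Timp1 and Timp3), against 7.38% of all genes.

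**Figure D4:**
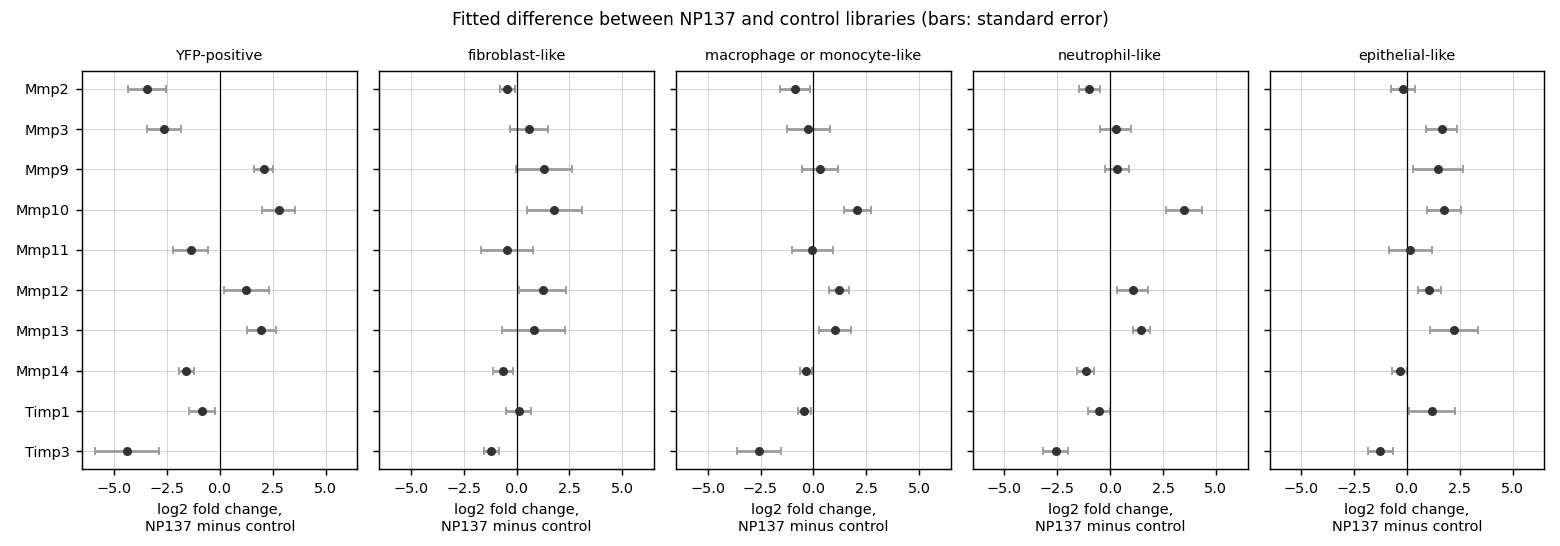
Log2 fold change of each gene, NP137 minus control, from edgeR's quasi-likelihood fit in 5 cell classes; points are estimates and bars standard errors, 2 against 2 libraries, and a gene left out by the low-count filter has no point. The points run from -4.39 for Timp3 in YFP-positive cells to 3.49 for Mmp10 in neutrophil-like cells, whose controls held 3 and 1 UMIs, and no point has an adjusted p under 0.05.

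Whether the difference between NP137 and control was itself unlike in tumour and stroma was tested with library as a block. None of the 10 passed (0% of 14450 genes by edgeR), 2 had an unadjusted p under 0.05 (13.4% of all genes), and DESeq2 called the same 2, Mmp2 and Mmp3 (5.81% of genes). For Mmp3 the log2 fold change in YFP-positive cells minus that in fibroblast-like cells was -3.51 ± 0.54 (edgeR adjusted p = 0.135, DESeq2 adjusted p = 5.45e-06), and edgeR called it without NP137 1, together with Mmp2 (7.29% of all genes were called in that fit), and without NP137 2 (0.211% of all genes). For Mmp2 it was -3.10 ± 0.97 (edgeR adjusted p = 0.304, DESeq2 adjusted p = 0.0124) and for Timp3 -3.31 ± 1.60 (edgeR adjusted p = 0.459). Mmp14 and Timp1 gave -0.91 ± 0.39 and -0.69 ± 0.39, and the other 5 genes had estimates smaller than their standard errors. The fibroblast-like sums here leave out clusters 7 and 18. With both added, edgeR called none of the 10, against 0.266% of 15063 genes.

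Other protease genes of the tumour lineage were looked at in 6 lists. In YFP-positive cells edgeR called none of the 8 other MMPs, 2 other inhibitors, 6 plasminogen activation genes, 6 activators and surface partners, 13 ADAM and ADAMTS genes and 6 cathepsins that passed the low-count filter. At an unadjusted p under 0.05 there were 4, 1, 2, 0, 7 and 0 of them, against 23.6% of all genes tested in the class. DESeq2 called 2, 0, 2, 0, 6 and 0, against 15.9% of all genes. The ADAM and ADAMTS list had 11 of 13 genes lower without overlap (40.7% of all genes) and a median log2 fold change of -1.14, against -0.03 for all genes tested. Adamts2, which trims procollagen, was 155 and 66.4 CPM against 3.68 and 4.29 CPM (log2 fold change -4.55 ± 0.56, edgeR adjusted p = 0.0663, DESeq2 adjusted p = 2.2e-13). Adam19, a membrane-anchored ADAM protease, was 25.2 and 35.3 against 3.29 and 3.05 CPM.

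Plat, the tissue-type plasminogen activator, was 175 and 184 against 56.9 and 44.6 CPM (log2 fold change -1.57 ± 0.24), and Serpinb2, an inhibitor of urokinase, was 14.9 and 12.3 against 44.4 and 56.2 CPM (2.15 ± 0.32). Of the other inhibitors Reck, a membrane-anchored MMP inhibitor, had the smallest p and was near the detection limit, at 0.633 and 0.587 against 0.0707 and 0.113 CPM (-2.48 ± 0.82, edgeR adjusted p = 0.166). Timp2, which takes part in Mmp2 activation by Mmp14, was 838 and 962 against 302 and 25.3 CPM, also without overlap (-2.25 ± 1.07, edgeR adjusted p = 0.282, DESeq2 adjusted p = 0.0749). Mmp19 was 15.6 and 11.7 against 1.13 and 1.69 CPM, and Mmp16, another membrane-anchored MMP, 11.6 and 3.49 against 0.707 and 0.226 CPM. Of the activators and surface partners Pcsk6 was at most 0.919 CPM (1.77 ± 0.82), and Bsg, which is known to induce MMPs, was 583 and 552 against 531 and 956 CPM, with overlap. Of the cathepsins, lysosomal proteases, Ctsb was 547 and 552 against 344 and 297 CPM (-0.52 ± 0.22) and Ctsk 9.47 and 21.3 against 6.44 and 7.57 CPM (-0.85 ± 0.48).

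In the fibroblast-like, macrophage or monocyte-like, neutrophil-like and epithelial-like classes edgeR called no gene of any of these lists. The genes of smallest p in each list had log2 fold changes in fibroblast-like cells of 0.59 (Mmp23), 1.29 (Mmp27), -0.063 (Timp2), -0.017 (Reck), 6.47 (Serpinb2), -0.13 (Plau), 2.16 (Lcn2), 0.69 (Bsg), 1.36 (Adamts5), 0.32 (Adam15), -0.41 (Ctsd) and -0.47 (Ctsk). Serpinb2 there was 1054 CPM in NP137 2 and at most 8.96 CPM in the other libraries, so that 1 library carries its value. In macrophage or monocyte-like cells they were -0.63 (Mmp19), 1.58 (Mmp27), 0.098 (Timp2), -0.86 (Plat), 0.85 (Serpine2), -0.75 (Cd44), 0.39 (Bsg), -0.48 (Adam10), -1.38 (Adamts9), 0.64 (Ctsz) and 0.38 (Ctsb). In neutrophil-like cells they were 0.69 (Mmp8), 0.77 (Mmp19), -0.22 (Timp2), 1.17 (Serpine2), -0.95 (Plau), 0.53 (Bsg), 0.44 (Lcn2), -0.84 (Adam15), -0.67 (Adamts1), -1.24 (Ctsk) and 0.56 (Ctss). In epithelial-like cells they were 1.46 (Mmp28), -1.05 (Mmp15), -0.66 (Timp2), 1.31 (Serpinb2), 1.51 (Serpine2), 1.21 (Bsg), -0.59 (Lcn2), -1.19 (Adamts9), 1.29 (Adam8), 0.70 (Ctsl) and 0.56 (Ctsz). Mmp8, the collagenase of neutrophil granules, was 172 and 147 CPM in neutrophil-like cells of the controls against 214 and 227 CPM under NP137.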

How the data were processed

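Single-cell 3′ libraries of LKPR skin tumours, 2 control and 2 NP137-treated, were analysed. The number of tumours or animals in each library is not labelled. Per the labels all live cells were sorted after collagenase digestion and 10000 were loaded. The deposited counts are whole-number UMI counts per gene and barcode on mm10 (10x software 3.0.2, per the file headers); Seurat 3.1.5 is listed in the submitters' processing notes, and no step of it is visible in these counts.

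From the counts, barcodes under 200 genes or with 20% or more mitochondrial UMIs were left out, the top Scrublet scores (0.8% per 1000 barcodes) were removed as doublets, and scanpy 1.11.5 clustered the rest (2000 variable genes without the members, 30 components, 15 neighbours, Leiden resolution 1). Clusters were named from marker lists where at least 3 markers were detected, the mean log2 marker score was at least 1 and no other class led. Clusters of few UMIs with no own marker among their 10 leading genes stayed unnamed. UMIs were summed per library and class and tested with edgeR 4.0.16 (TMM, low-count filter, robust quasi-likelihood, 2-sided, Benjamini-Hochberg over all genes, threshold 0.05). The same fit was also run on simulated counts with the gene means of these data and 1 common dispersion per class, unlike the gene-wise spread of real counts. No result here rests on that run. DESeq2 1.42.0 was an alternative. The members, lists and tests were chosen with earlier results of these data known. All 10 members are named in each class whatever their p, and of each other list and class the 2 genes with the smallest p. Fold changes outside YFP-positive cells were followed through the alternatives for members of at least 100 CPM in a group or with an unadjusted p under 0.05, a choice made after values were seen, as was adding clusters 7 and 18 to the fibroblast-like class. With 2 against 2 libraries, p-values measure the spread between these libraries only, which may be technical; intervals cover counting error only. A further allele of the genotype, carried by all 4 libraries, is not reported here.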

Additional observations from a re-analysis of the deposited data

How the results depend on the processing

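Each class holds 2 libraries per group, so 1 library can decide a value. Of 520 log2 fold changes of single genes under the alternatives, 474 kept their direction and their side of the threshold, 27 passed it in addition and 19 changed sign. In YFP-positive cells the signs of 9 of the 10 genes held in every fit; Timp1 ranged from -1.47 to 0.13 over the fits that leave out 1 library.

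The number of genes called in YFP-positive cells was 0 in the main test, 7 with DESeq2, 2 without the low-count filter (Mmp9 and Mmp14; 5.83% of all genes) and 0 to 2 when 1 library was left out: Mmp9 without control 1 (3.56% of all genes), Mmp10 and Mmp13 without NP137 1 (1.9%). Without the filter there was 1 call in macrophage or monocyte-like cells (Mmp12; 0.397% of all genes), 2 in neutrophil-like cells (Mmp10 and Timp3; 0.276%) and 2 in epithelial-like cells (Mmp3 and Mmp10; 0.838%). DESeq2 gave 1 call in neutrophil-like cells and 2 for the difference between classes. Leaving out 1 library gave 0 to 1 calls in neutrophil-like cells (Mmp10 without NP137 1, with 1.15% of all genes; Timp3 without NP137 2, with 0.198%), 0 to 5 in epithelial-like cells (without NP137 1, with 7.38%) and 0 to 2 for the difference between classes (7.29% without NP137 1 and 0.211% without NP137 2). The cause of these shifts was not tested.

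In fibroblast-like cells Mmp11 was 0.25 at Leiden resolution 2, Mmp13 was -0.97 with the members kept for clustering and -0.20 with no doublets removed, and Timp1 was -0.086 with no TMM factors. Leaving out 1 library, the fibroblast-like ranges were -0.19 to 2.49 for Mmp3, -3.32 to 0.46 for Mmp11, -1.37 to 3.55 for Mmp13 and -0.76 to 0.63 for Timp1. Other ranges that crossed 0 were -0.10 to 1.87 for Mmp13 in macrophage or monocyte-like cells, -0.27 to 1.48 for Mmp9 and -1.55 to 0.14 for Timp1 in neutrophil-like cells, and -0.43 to 3.11 for Mmp9 and -1.18 to 2.03 for Timp1 in epithelial-like cells, where Timp1 was also -0.46 under the stricter cell filter. The epithelial-like fit at Leiden resolution 2 was not run, since NP137 2 had too few such cells, and Mmp10 in neutrophil-like cells had no value under the stricter cell filter.

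Replicate numbers are shared by the groups but did not pair the libraries: deviations of same-numbered libraries correlated by -0.03 to 0.17 over 5 classes. With the replicate block no gene was called in any of these classes, and Timp1 in fibroblast-like cells turned to -0.026. Shares of cells depend on depth: 64 of 80 moved outside their interval when cells were thinned to 1000 UMIs, and 70 of 80 without thinning.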
